A study of Mus musculus with 12 samples.

Results

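The effect of a mutant selenocysteine tRNA on selenoprotein mRNAs and on the ribosomes that read them was measured in mouse liver after a diet with no added selenium. All mice were FVB/N. One genotype was wild type and the other carried 20 copies of the TrspA37G transgene, and both were kept for 6 weeks on a 0 ppm selenium diet; the age label of 3 weeks is shorter than the time on the diet, so age at sampling is unknown. Members were chosen by the genotype and diet labels, which gave 4 of the 12 libraries of the series, a ribosome footprint and an mRNA library of each genotype, with all 23 listed selenoprotein genes. The other 8 libraries come from the same genotypes at 0.1 and 2.0 ppm selenium. Each group is 1 library, so there are no replicates, no p-value is given, and every interval covers counting error only and holds no variation between mice. The number of mice behind a library and the promoter of the transgene were not given in the sources used here. Neither the tRNA nor any marker of a liver cell type is listed, so neither the genotype nor the tissue label could be checked. In whole liver, fewer cells of a type and less RNA per cell cannot be told apart.

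Selenocysteine (Sec) is the amino acid in the catalytic site of most selenoproteins and is inserted at UGA, a codon that otherwise ends translation. Insertion needs the Sec tRNA, a selenium donor made by Sephs2, and a stem-loop in the 3' untranslated region of the mRNA, the SECIS element. The TrspA37G mutation removes the adenosine beside the anticodon that is normally isopentenylated, and mice with such a tRNA are known for a loss of stress-related selenoproteins such as Gpx1, with housekeeping ones such as Txnrd1 better kept. When a ribosome does not insert Sec it stops at the UGA, so footprints 5' and 3' of that codon tell how much of the reading passes it.

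The UGA codons of the 9 genes with enough footprints on both sides are shown because the comparisons 5' and 3' of the codon turn on them. The sequences are from GENCODE M21 transcripts (GRCm38), with the UGA, written TGA, in capitals.
Gpx1 (chr9:108339436-108339468, plus strand): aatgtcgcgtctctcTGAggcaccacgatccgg
Gpx4 (chr10:80054722-80054754, plus strand): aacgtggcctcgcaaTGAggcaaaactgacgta
Sepp1, first of its Sec codons (chr15:3274833-3274865, plus strand): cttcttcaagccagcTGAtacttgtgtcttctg
Sephs2 (chr7:127273716-127273748, minus strand): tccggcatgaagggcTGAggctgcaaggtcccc
Sepx1 (chr17:24740143-24740175, plus strand): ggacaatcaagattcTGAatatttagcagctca
Sep15 (chr3:144590630-144590662, plus strand): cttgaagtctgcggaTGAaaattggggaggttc
Selt (chr3:58576866-58585255, plus strand, across an intron): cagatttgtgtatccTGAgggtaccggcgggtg
Dio1 (chr4:107297685-107297717, minus strand): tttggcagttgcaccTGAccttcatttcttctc
Seli (chr5:30266949-30266981, plus strand): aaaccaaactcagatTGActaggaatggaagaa
In Seli the UGA lies in the last of 10 exons and close to the end of the reading frame. Its sequence from the UGA to the stop codon, both in capitals, is shown because it limits what can be measured 3' of the UGA.
Seli, UGA to stop (chr5:30266964-30266999, plus strand): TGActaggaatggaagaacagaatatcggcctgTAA
The base after the UGA was G in 12 of the 23 genes, C in 6, A in 3 and T in 2. The 9 genes shown hold all 4 bases, with G in Gpx1, Gpx4, Sephs2 and Selt, A in Sepx1 and Sep15, C in Dio1 and Seli, and T in Sepp1.

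Selenoprotein mRNA and footprints both made up less of the libraries in TrspA37G than in wild type. The 4 libraries held 23945053 (wild type) and 28864210 (TrspA37G) mapped footprint reads and 16709701 and 12403067 mapped mRNA reads. Footprints over the coding windows of the 23 genes were 0.156% of mapped reads in wild type and 0.0838% in TrspA37G, and mRNA reads over the same windows 0.475% and 0.317%. Gpx1 alone made up 50.7% of the difference in footprints, followed by Sepp1 with 11.3%, Sepx1 with 10.6% and Sephs2 with 9.64%. Most Gpx1 footprints lay in 18 nt that hold the UGA, 11077 of 12509 in wild type and 4028 of 4464 in TrspA37G. The part that Gpx1 had in the difference thus rests mostly on that stretch. The difference in mRNA was spread otherwise, with 33.2% from Gpx1, 32.2% from Sepp1 and 20.5% from Sephs2. With that stretch counted, Gpx1 was the most footprinted gene in wild type, with 33.4% of the footprints of the 23 genes. It stood behind Sepp1 in TrspA37G, where it held 18.5% and Sepp1 33.3%. Without the stretch Gpx1 stood behind Sepp1, Sephs2, Sepx1, Gpx4 and Selo in wild type, with 671 footprints 5' of it and 761 3' of it. Sepp1 had 3517 and 4903 there.

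A gene was compared when both libraries together held at least 10 reads and each held at least 1, and it was called lower or higher when the levels differed at least 1.5-fold and the 95% counting interval of the ratio excluded 1. Whole mRNA levels are in RPKM, reads divided by mRNA length and by all mapped reads, and footprint levels in RPFKM, the same for footprints. By this rule mRNA was lower in TrspA37G for 9 of 20 genes (45%) and higher for none, with a median log2 ratio of -0.55, and 17 of 20 log2 ratios lay below 0. Footprints over the coding window were lower for 12 of 20 (60%) and higher for none, with a median of -0.96 and 19 of 20 below 0. Only these selenoprotein genes are tabulated, so a shift of both libraries as a whole and a change shared by most of these genes cannot be told apart. Measured against the median gene, 4 mRNAs were lower (Dio1, Gpx1, Selh and Txnrd3) and 1 higher (Txnrd1), and 2 genes had lower footprints (Gpx1 and Gpx3) and 3 higher (Selk, Sepp1 and Txnrd1). Folds below are per mapped read, and values called relative are set against these medians.

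**Figure D1:**
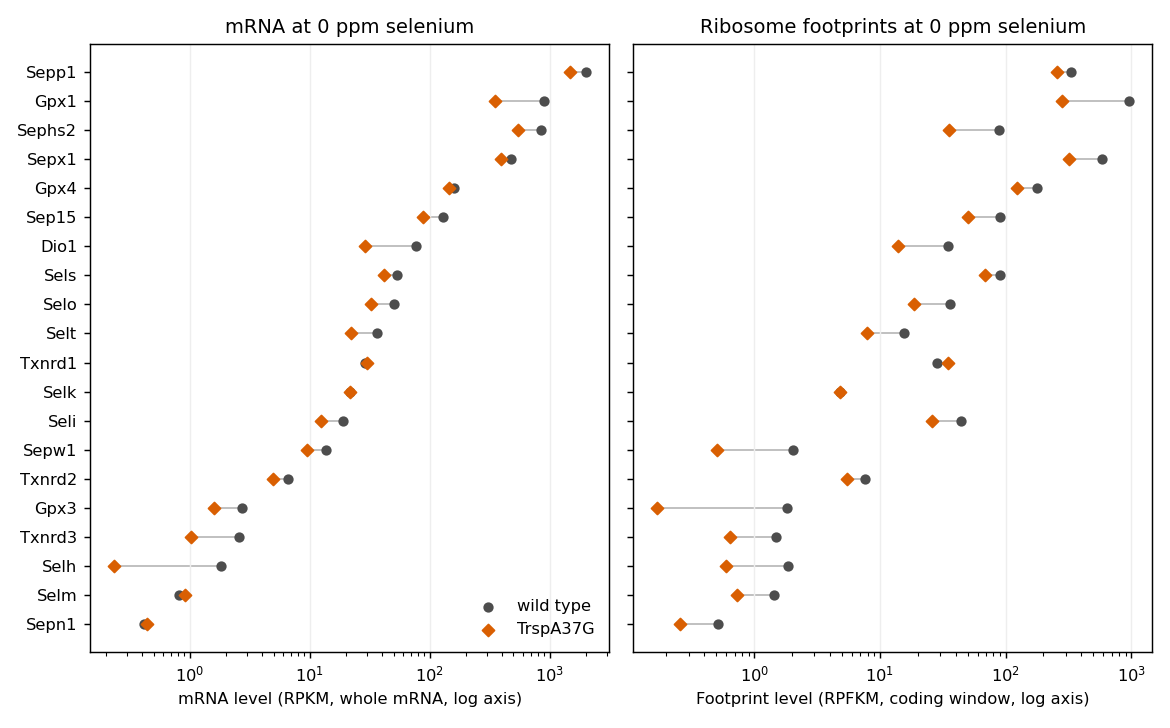
Levels of 20 selenoprotein genes at 0 ppm selenium in wild type (grey circles) and TrspA37G (orange diamonds), on log axes, for whole mRNA in RPKM (left) and for footprints over the coding window in RPFKM (right); each point is 1 library. Gpx1 footprints went from 957 to 283 RPFKM, while Txnrd1 stood at 28.6 and 34.9.

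**Figure D2:**
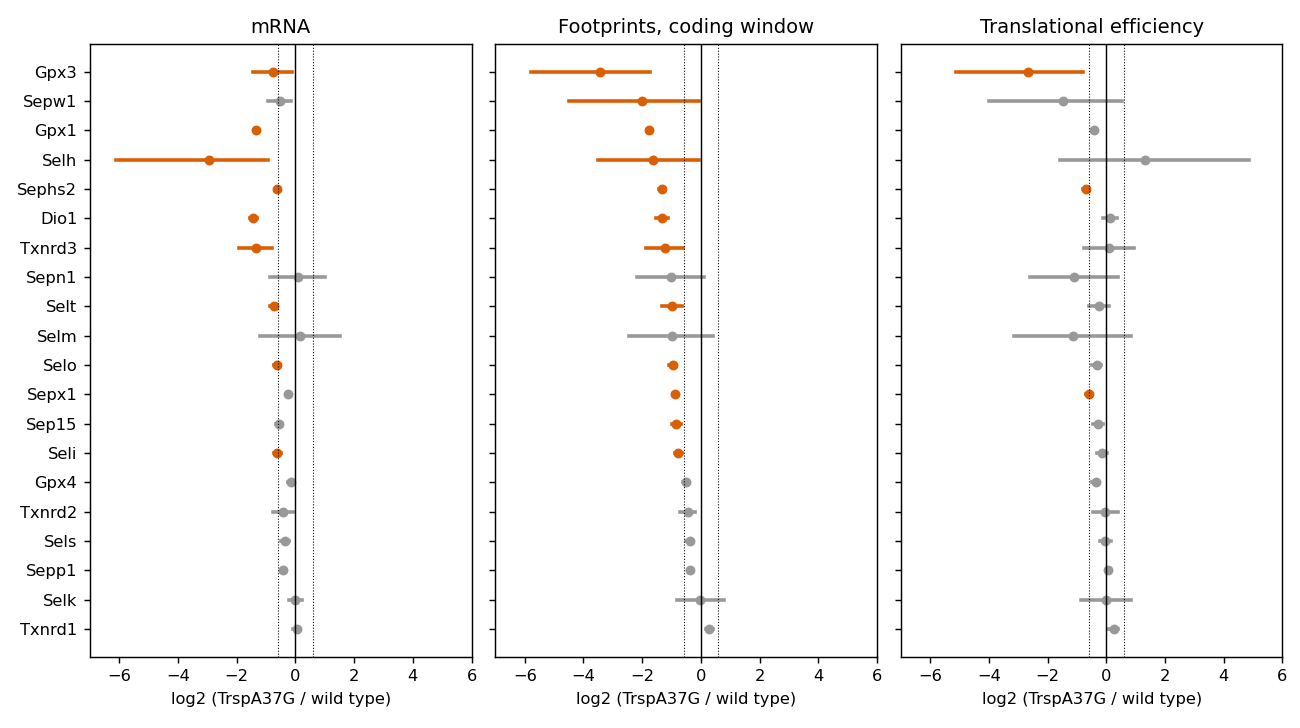
Log2 ratio of TrspA37G to wild type at 0 ppm selenium for mRNA, footprints and translational efficiency (footprint level over mRNA level), ordered by the footprint ratio. Bars are 95% counting intervals, orange marks the called genes, and dotted lines stand at 1.5-fold; 19 of 20 footprint ratios lie left of 0.

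Among the glutathione peroxidases, which reduce peroxides with glutathione, 2 of the 3 compared were lower in mRNA and in footprints, beside 45% and 60% of all genes compared, and all 3 were lower in footprints 3' of the UGA, beside 72.7%. Gpx1, the abundant cytosolic enzyme, stood at 893 RPKM in wild type and 351 in TrspA37G, 2.54-fold lower (2.46 to 2.63). Its footprints stood at 957 and 283 RPFKM, 3.38-fold lower (3.26 to 3.50). It was also lower relative to the median gene, by a log2 ratio of -0.80 in mRNA and -0.79 in footprints. Gpx3, the plasma enzyme made mostly in kidney, was scarce here, with 69 mRNA reads in wild type and 30 in TrspA37G (2.72 and 1.59 RPKM, 1.71-fold lower, 1.10 to 2.72). It had 27 footprints in wild type and 3 in TrspA37G (1.82 and 0.167 RPFKM), a ratio of 10.8 (3.34 to 55.9). Gpx4, which reduces lipid hydroperoxides in membranes, was close in mRNA (161 and 145 RPKM) and stood at 177 and 124 RPFKM in footprints, 1.43-fold apart (1.35 to 1.52) and within the threshold. Relative to the median gene the sign of Gpx4 turned, to a log2 ratio of 0.40 in mRNA and 0.45 in footprints. GENCODE M21 lists pseudogene copies of Gpx4, Selt and Selk, and the counting of reads with several matches was not given in the sources used here, so levels of these 3 genes are uncertain. Gpx2, the enzyme of the gut lining, had 3 mRNA reads in wild type and 0 in TrspA37G and was not compared; 0 reads allow up to 3.

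Of the genes that supply selenium, Sephs2 was lower and Sepp1 was not. Sephs2, which makes the selenophosphate used for Sec synthesis and is itself a selenoprotein, stood at 847 RPKM in wild type and 546 in TrspA37G, 1.55-fold lower (1.52 to 1.58). This call rests on the whole mRNA: over the coding window Sephs2 mRNA stood at 825 and 575 RPKM, 1.44-fold apart (1.40 to 1.47) and within the threshold. Its footprints stood at 89.1 and 35.3 RPFKM, 2.52-fold lower (2.36 to 2.70). Relative to the median gene Sephs2 was called in neither mRNA nor footprints. Sepp1, which liver secretes to carry selenium to other organs, had the highest mRNA level in both genotypes, 2003 and 1494 RPKM, 1.34-fold apart (1.32 to 1.36). Its footprints stood at 333 and 258 RPFKM, 1.29-fold apart (1.25 to 1.33), and relative to the median gene they were higher, by 0.59 on the log2 scale.

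Footprints were lower for 4 of the 5 small thioredoxin-fold selenoproteins and mRNA for 2 of 5, with medians of -0.99 and -0.56 that came to -0.03 and -0.01 relative to the median gene. The shares over all genes were 60% in footprints and 45% in mRNA, and relative to the median gene 0 of the 5 stayed lower in footprints and 1 in mRNA. Selt, an endoplasmic reticulum protein, stood at 36.6 and 21.9 RPKM, 1.67-fold lower (1.55 to 1.81), and at 15.7 and 7.87 RPFKM in footprints, 1.99-fold lower (1.58 to 2.52). Sep15, a partner of the glycoprotein folding sensor of the endoplasmic reticulum, stood at 130 and 87.9 RPKM, just short of the threshold at 1.48-fold (1.39 to 1.57). Over the coding window Sep15 mRNA passed it, at 178 and 111 RPKM (1.60-fold lower, 1.45 to 1.76). Its footprints stood at 90.1 and 50.6 RPFKM, 1.78-fold lower (1.61 to 1.98), but 0.13 higher on the log2 scale relative to the median gene. Selh and Sepw1, both known to respond to selenium supply, were scarce. Selh had 21 mRNA reads in wild type and 2 in TrspA37G, a ratio of 7.79 (1.91 to 68.6), and 13 and 5 footprints (3.13, 1.05 to 11.2). Of these footprints 10 in wild type and 4 in TrspA37G lay in the 18 nt that hold the UGA. Without that stretch too few were left for Selh to be compared. Sepw1 mRNA stood at 13.8 and 9.49 RPKM, 1.45-fold apart (1.11 to 1.91), and its footprints numbered 10 and 3 (a ratio of 4.02, 1.03 to 22.7). Selm was scarce too, with 12 and 10 mRNA reads and 13 and 8 footprints, and was called in neither. Without the 18 nt that hold the UGA its footprints were called lower. That call rests on few reads, 4 and 4 on the 5' side and 8 and 0 on the 3' side.

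Sepx1 was lower in footprints and not in mRNA, and Dio1 was lower in both. Sepx1, the methionine sulfoxide reductase also called MsrB1, stood at 476 and 395 RPKM in mRNA (a log2 ratio of -0.27) and in footprints at 585 and 320 RPFKM (1.83-fold, 1.74 to 1.92). Relative to the median gene the Sepx1 values were 0.28 in mRNA and 0.09 in footprints on the log2 scale, both above 0. Dio1, the deiodinase that activates thyroxine in liver, stood at 77.6 and 28.8 RPKM (2.69-fold, 2.46 to 2.95) and at 34.6 and 13.9 RPFKM (2.50-fold, 2.16 to 2.88). Dio1 lay below the median gene in both, by log2 ratios of -0.88 and -0.35. The other deiodinases were hardly detected, with 0 and 1 mRNA reads for Dio2 and 6 and 0 for Dio3.

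The thioredoxin reductases, which reduce thioredoxin and carry Sec next to the C terminus, divided. Txnrd1, the cytosolic enzyme, stood at 29.1 RPKM in wild type and 29.9 in TrspA37G, and at 28.6 and 34.9 RPFKM in footprints, 1.22-fold higher (1.13 to 1.33) and the one compared gene whose footprint level was above wild type. Relative to the median gene Txnrd1 was called higher in both, by 0.59 and 1.25 on the log2 scale. The mRNA call rests on the whole mRNA, as over the coding window Txnrd1 mRNA was not called under that scaling. The mitochondrial Txnrd2 stood at 6.63 and 4.95 RPKM and at 7.54 and 5.5 RPFKM, within the threshold. Txnrd3, best known from testis, was scarce and lower in both, with 122 and 36 mRNA reads (2.52-fold, 1.72 to 3.76) and 68 and 35 footprints (2.34-fold, 1.54 to 3.63).

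Of the other genes with Sec near the C terminus, Seli and Selo were lower and Selk and Sels were not. Seli, an ethanolamine phosphotransferase of phospholipid synthesis, stood at 18.9 and 12.3 RPKM (1.53-fold, 1.42 to 1.65) and at 44.2 and 26 RPFKM (1.70-fold, 1.56 to 1.86). Over the coding window the mRNA of Seli was within the threshold, at 31.4 and 22.8 RPKM (1.38-fold, 1.20 to 1.58). Selo, a mitochondrial pseudokinase that attaches AMP to proteins, stood at 50.1 and 32.3 RPKM (1.55-fold, 1.43 to 1.68) and at 36.2 and 18.6 RPFKM (1.94-fold, 1.80 to 2.10). Relative to the median gene the footprint values of Seli and Selo were 0.20 and 0.01 on the log2 scale, so that neither lay below it. Selk, which serves protein palmitoylation in the endoplasmic reticulum, stood at 21.6 and 21.5 RPKM and at 4.83 and 4.77 RPFKM. Sels, part of the machinery that removes misfolded proteins from the endoplasmic reticulum, stood at 53.2 and 41.7 RPKM and at 90.4 and 69.2 RPFKM. Sepn1, of the endoplasmic reticulum and known from muscle, had 24 and 19 mRNA reads and 20 and 12 footprints and was not called.

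The stress-related selenoproteins were lower in mRNA for 4 of 7 genes and in footprints for 6 of 7, with medians of -0.74 and -1.65, beside 9 of 20 and 12 of 20 over all genes. The housekeeping ones were lower for 1 of 6 and 2 of 6, and their medians, -0.42 and -0.49, became 0.13 and 0.48 relative to the median gene. The stress-related medians stayed below 0 under that scaling, at -0.19 and -0.68, but the calls fell to 2 lower mRNAs, and to 2 lower and 1 higher in footprints. Of the housekeeping genes 0 were then lower, with 1 higher in mRNA and 2 in footprints. Selk was the stress-related gene not called in footprints. Per mapped read, Sephs2 was the housekeeping gene called in both and Sep15 was called in footprints. These lists follow the known behaviour of such tRNA mutants, with results of these data known, so the counts are a description. In 14 of the 23 genes the UGA lay more than 50 nt before the last exon junction, the arrangement in which a stop is known to mark an mRNA for nonsense-mediated decay. Of the 13 of these that could be compared, 5 were lower in mRNA (median log2 ratio -0.54), and of the 7 others 4 were lower (median -0.62).

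Translational efficiency, the footprint level over the coding window divided by the whole-mRNA level, was lower in TrspA37G for 3 of 20 genes (15%) and higher for none, with a median log2 ratio of -0.26. For Sephs2 it was 0.105 in wild type and 0.0646 in TrspA37G, 1.63-fold lower (1.52 to 1.74), and for Sepx1 1.23 and 0.809, 1.52-fold lower (1.43 to 1.62). For Gpx3, with 3 footprints in TrspA37G, it was 0.667 and 0.105, a ratio of 6.35 (1.73 to 34.9). Relative to the median gene, Gpx3 alone was called. Gpx1 stood at 1.07 and 0.807, 1.33-fold apart (1.27 to 1.39), and Sepp1 at 0.166 and 0.172. Without the 18 nt that hold the UGA, the translational efficiency of Gpx1 was called lower, at 1.56-fold (1.39 to 1.74). Relative to the median gene this call of Gpx1 was lost. Dio1, at 0.446 and 0.482, and Txnrd1, at 0.983 and 1.17, were above wild type within the threshold.

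Footprints were next read on each side of the UGA. Footprints 5' of it were lower for 9 of 16 genes (56.2%) with a median log2 ratio of -0.89, and those 3' of it were lower for 8 of 11 (72.7%) and higher for 1 (9.09%) with a median of -1.38. No 3' window exists for Selk, Selo, Sels and the thioredoxin reductases, whose UGA lies too close to the stop codon, so the genes on the 2 sides are not the same. Sepp1 was called lower on the 5' side, at 1288 and 800 RPFKM (1.61-fold, 1.53 to 1.70), but on the 3' side, which holds its other Sec codons, it stood at 215 and 188 (1.15-fold, 1.10 to 1.19). Gpx4 showed the reverse, with 506 and 372 RPFKM on the 5' side (1.36-fold, 1.27 to 1.45) and 38.6 and 20.1 on the 3' side, called lower at 1.92-fold (1.61 to 2.29). Relative to the median gene of each side, these signs turned for Sepp1 (0.21 and 1.18 on the log2 scale) and for Gpx4 (0.45 and 0.44). Gpx1 was lower on both sides under either scaling, at 359 and 99.5 RPFKM 5' of the UGA (3.61-fold, 3.10 to 4.22) and 70.6 and 16.3 RPFKM 3' of it (4.33-fold, 3.71 to 5.06). Sephs2 stood at 220 and 114 RPFKM on the 5' side (1.93-fold, 1.70 to 2.19) and at 74.3 and 25.8 on the 3' side (2.88-fold, 2.66 to 3.12).

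The ratio of 3' to 5' footprint density within a library does not depend on how libraries were scaled. It was below 1 for 8 of the 9 genes compared in both genotypes, whereas for mRNA fragments the same ratio was above 1 for 8 of 9. In TrspA37G it was called lower for 1 of 9 genes (11.1%) and higher for 2 (22.2%), with a median log2 change of -0.10. Selt was the gene with the lower ratio, 0.224 in wild type and 0.0959 in TrspA37G, 2.34-fold lower (1.39 to 3.98) from 99 and 35 footprints 3' of the UGA. Sepx1 had 0.0600 and 0.182, 3.03-fold higher (1.99 to 4.61). Its footprints 5' of the UGA were lower, at 478 and 228 RPFKM, while those 3' of it numbered 35 in wild type and 61 in TrspA37G (28.7 and 41.4 RPFKM). The 3' window of Sepx1 is short, at 51 nt. Seli had the ratio 1.21 and 7.11, 5.86-fold higher (3.67 to 9.37), but its 3' window is 18 nt long and holds 23 and 86 footprints, just before the stop codon printed above.

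Among the other 6 genes the 3' to 5' ratio moved less. For Sephs2 it was 0.338 and 0.226, 1.49-fold lower (1.29 to 1.73) and just inside the threshold, and for Gpx4 0.0764 and 0.0540 (1.41-fold lower, 1.18 to 1.70). For Sepp1 it was 0.167 and 0.235, 1.41-fold higher (1.32 to 1.5). Gpx1 (0.197 and 0.164), Dio1 (0.176 and 0.164) and Sep15 (0.633 and 0.598) had intervals that include 1. No gene of 9 was called in the mRNA ratio, which for Gpx1 was 1.48 and 1.99 and for Selt 2.66 and 2.27. Divided by the mRNA ratio, the footprint ratio of Gpx1 was called lower (1.61-fold, 1.25 to 2.08), that of Selt no longer (1.99-fold, 0.810 to 4.91), and those of Seli and Sepx1 stayed higher (4.21-fold, 1.92 to 9.21, and 2.76-fold, 1.79 to 4.27). The 9 Sec codons differ in the base that follows, and the 3 called genes each have a different one, with A in Sepx1, C in Seli and G in Selt.

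**Figure D3:**
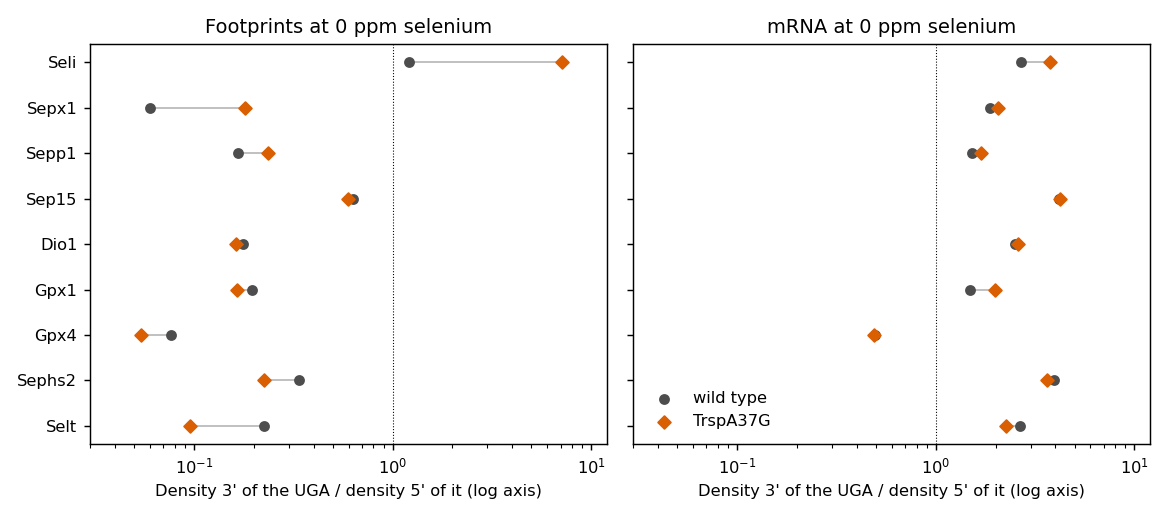
Density 3' of the UGA divided by density 5' of it, on a log axis, for footprints (left) and mRNA fragments (right) at 0 ppm selenium; grey circles are wild type, orange diamonds TrspA37G, 1 library each, and the dotted line marks equal density. For Sepx1 the footprint ratio went from 0.0600 to 0.182 and for Selt from 0.224 to 0.0959.

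Between the 5' and 3' windows lie 18 nt that hold the UGA, and for Gpx1 and Sepx1 much of the footprint signal lay there. In Gpx1 this stretch, 3.30% of the coding window's length, held 88.6% of the window's footprints in wild type (exact 95% interval 88.0 to 89.1) and 90.2% in TrspA37G (89.3 to 91.1), against 18.2% and 21.9% of mRNA reads. In Sepx1 it held 36.8% and 43.3% of footprints and 23.2% and 26.6% of mRNA reads, on 6.19% of the length. Neither gene's share was called different between genotypes, with odds ratios of 1.19 (1.07 to 1.34) and 1.31 (1.19 to 1.45). The coding-window values of Gpx1 thus rest mostly on this stretch, and without it Gpx1 footprints were 3.96-fold lower (3.55 to 4.42) and those of Sepx1 2.04-fold lower (1.91 to 2.17).

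The share at the UGA was called higher in TrspA37G for 3 of 9 genes (33.3%) and lower for 1 (11.1%). In Sep15 it was 3.78% in wild type and 7.99% in TrspA37G (35 and 50 footprints, odds ratio 2.21, 1.39 to 3.55), in Sephs2 1.84% and 3.55% (51 and 47 footprints, 1.96, 1.31 to 2.94) and in Seli 1.74% and 3.28% (21 and 28 footprints, 1.91, 1.08 to 3.39). For Sep15 the density there was 81.2 RPFKM in wild type and 96.2 in TrspA37G, a difference given without an interval. Densities 5' and 3' of the stretch were lower in TrspA37G, at 110 and 60.0 RPFKM (567 and 374 footprints) and at 69.4 and 35.9 (324 and 202). Gpx4 had a lower share, 1.94% and 1.05% (44 and 20 footprints, 0.536, 0.315 to 0.912), from a stretch that held fewer footprints than its 3.37% of the length. The mRNA share of Gpx4 was also below wild type, at 6.05% and 4.44%. Selt (6.06% and 10.8%) and Dio1 (10.5% and 9.09%) were not called, with odds ratios of 1.88 (0.760 to 4.69) and 0.855 (0.506 to 1.41). Sepp1 was not called either, at 2.54% and 3.35% of footprints (odds ratio 1.33, 1.11 to 1.60), while its mRNA share, at 0.615% and 0.371% (0.602, 0.456 to 0.794), was the 1 of 7 called lower (14.3%). Divided by the mRNA share, the footprint share of Sepp1 was higher by 1.15 on the log2 scale and called, and that of Gpx4 lost its call (-0.43). Where the windows end was inferred from their lengths, and this placement was not tested.

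**Figure D4:**
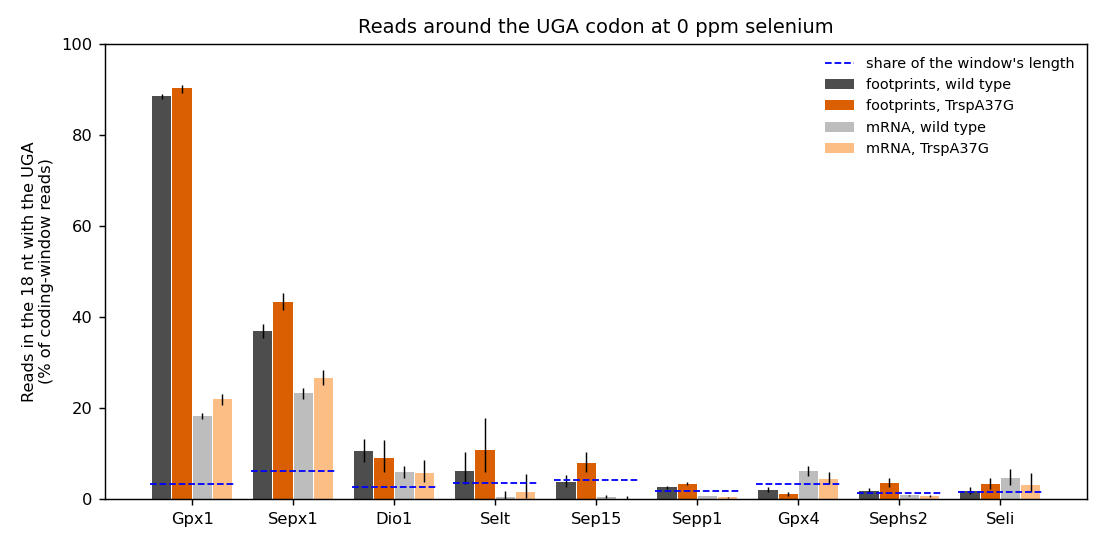
Share of coding-window reads in the 18 nt with the UGA, in percent, for footprints (dark bars) and mRNA (light bars) of wild type (grey) and TrspA37G (orange) at 0 ppm selenium, with exact 95% intervals; blue dashes give the share of the length. Gpx1 stands at 88.6% and 90.2% of footprints and Sepx1 at 36.8% and 43.3%.

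The genotype difference without selenium was then set against that at 0.1 and 2.0 ppm, which rest on other libraries. Relative to wild type, Dio1 and Seli were lower in mRNA and footprints at 0 ppm than on either other diet, while the footprints of Gpx1, Sepx1, Sepp1, Txnrd1 and Txnrd2 lay closer to wild type, or above it, at 0 ppm. Dio1 mRNA was 2.69-fold lower in TrspA37G at 0 ppm, but at 0.1 ppm it stood at 76.8 RPKM in wild type and 135 in TrspA37G, and at 2.0 ppm at 108 and 130. At 0.1 ppm Dio1 was the 1 mRNA of 20 called higher in TrspA37G (5%) and the 1 gene of 19 called higher in footprints 5' of the UGA (5.26%). The log2 genotype ratio of Dio1 mRNA was thus 2.24 lower at 0 than at 0.1 ppm (difference -2.24, -2.40 to -2.08) and 1.69 lower than at 2.0 ppm (-1.69, -1.84 to -1.53). The footprints of Dio1 followed, with differences of -1.79 (-2.03 to -1.55) and -1.13 (-1.39 to -0.88). Seli mRNA stood at 16.3 and 24.2 RPKM at 0.1 ppm and at 17.2 and 20.2 at 2.0 ppm, which gave differences of -1.19 (-1.33 to -1.04) and -0.85 (-0.99 to -0.70). Over all genes, the mRNA ratio was lower at 0 than at 0.1 ppm for 3 of 20 (15%; Dio1, Gpx3 and Seli) and lower than at 2.0 ppm for 4 (20%; Dio1, Seli, Selt and Sep15). It was higher at 0 than at 2.0 ppm for 1 gene (5%), Txnrd2, with a difference of 0.61 (0.16 to 1.06), and than at 0.1 ppm for 0 genes.

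For footprints, the ratio at 0 ppm was below that at 0.1 ppm in 3 of 20 genes (15%; Dio1, Gpx3 and Seli) and above it in 5 (25%), and it was below that at 2.0 ppm in 6 (30%; Dio1, Gpx3, Gpx4, Seli, Selo and Selt) and above it in the same 5 (25%). Gpx1 footprints differed 3.38-fold between genotypes at 0 ppm, from 957 to 283 RPFKM, but stood at 2863 and 461 at 0.1 ppm and at 4501 and 506 at 2.0 ppm, so that its log2 ratio was 0.88 (0.82 to 0.94) and 1.40 (1.33 to 1.46) higher at 0 ppm. In the TrspA37G libraries the Gpx1 level thus spanned 283 to 506 RPFKM over the diets, and in wild type 957 to 4501. Sepx1 footprints stood at 742 and 155 RPFKM at 0.1 ppm and at 762 and 149 at 2.0 ppm, and its log2 ratio was 1.39 (1.28 to 1.5) and 1.48 (1.36 to 1.61) higher at 0 ppm. Over the coding window Sepx1 was footprinted more in TrspA37G at 0 ppm, at 320 RPFKM, than in TrspA37G on the other diets. In wild type the 0 ppm level of 585 was the lowest. Footprints of Sepx1 3' of the UGA did not differ so in TrspA37G, at 41.4, 40.1 and 45.2 RPFKM at 0, 0.1 and 2.0 ppm. Txnrd2 footprints stood at 13.8 and 4.6 RPFKM at 0.1 ppm and at 16.3 and 3.97 at 2.0 ppm, with 7.54 and 5.5 at 0 ppm, and its log2 ratio was 1.13 and 1.58 higher at 0 ppm.

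In translational efficiency the genotype ratio was higher at 0 ppm than at 0.1 ppm for 4 of 20 (20%; Gpx1, Sepp1, Sepx1 and Txnrd2) and than at 2.0 ppm for 4 (20%; Gpx1, Sepx1, Txnrd1 and Txnrd2), and lower for Gpx3 in each (5%). The translational efficiency of Gpx1 was 1.23 in wild type and 0.410 in TrspA37G at 0.1 ppm and 1.85 and 0.427 at 2.0 ppm, against 1.07 and 0.807 at 0 ppm. For Sepx1 it was 1.43 and 0.432 at 0.1 ppm and 1.39 and 0.456 at 2.0 ppm, against 1.23 and 0.809. In both genes the coding-window value in TrspA37G at 0 ppm was thus the highest of that genotype. That of wild type was its lowest. Footprints 5' of the UGA over whole mRNA were also highest at 0 ppm in TrspA37G, but those 3' of it were lowest. On the 3' side the TrspA37G values at 0, 0.1 and 2.0 ppm were 0.0465, 0.0710 and 0.0928 for Gpx1. For Sepx1 they were 0.105, 0.112 and 0.138. The 18 nt with the UGA held 90.2%, 79.3% and 73.5% of the Gpx1 footprints in these libraries.

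The 3' to 5' footprint ratio also differed by diet. Its genotype change was higher at 0 than at 0.1 ppm for 4 of 9 genes (44.4%; Gpx1, Seli, Sepp1 and Sepx1), lower for 1 (11.1%; Selt), and higher than at 2.0 ppm for 3 (33.3%; Seli, Sepp1 and Sepx1). For Sepx1 the ratio was 0.373 in wild type and 0.369 in TrspA37G at 0.1 ppm and 0.376 and 0.431 at 2.0 ppm, so that the genotypes lay close together on the diets with selenium, against 0.0600 and 0.182 without it. For Sepp1 it was 0.366 and 0.263 at 0.1 ppm and 0.489 and 0.228 at 2.0 ppm, below wild type, and 0.167 and 0.235, above wild type, at 0 ppm. In TrspA37G the Sepp1 ratio stayed between 0.228 and 0.263 over the diets, and in wild type it ran from 0.167 to 0.489. For Gpx1 it was 0.940 and 0.385 at 0.1 ppm, 0.477 and 0.362 at 2.0 ppm, and 0.197 and 0.164 at 0 ppm, the lowest of each genotype.

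**Figure D5:**
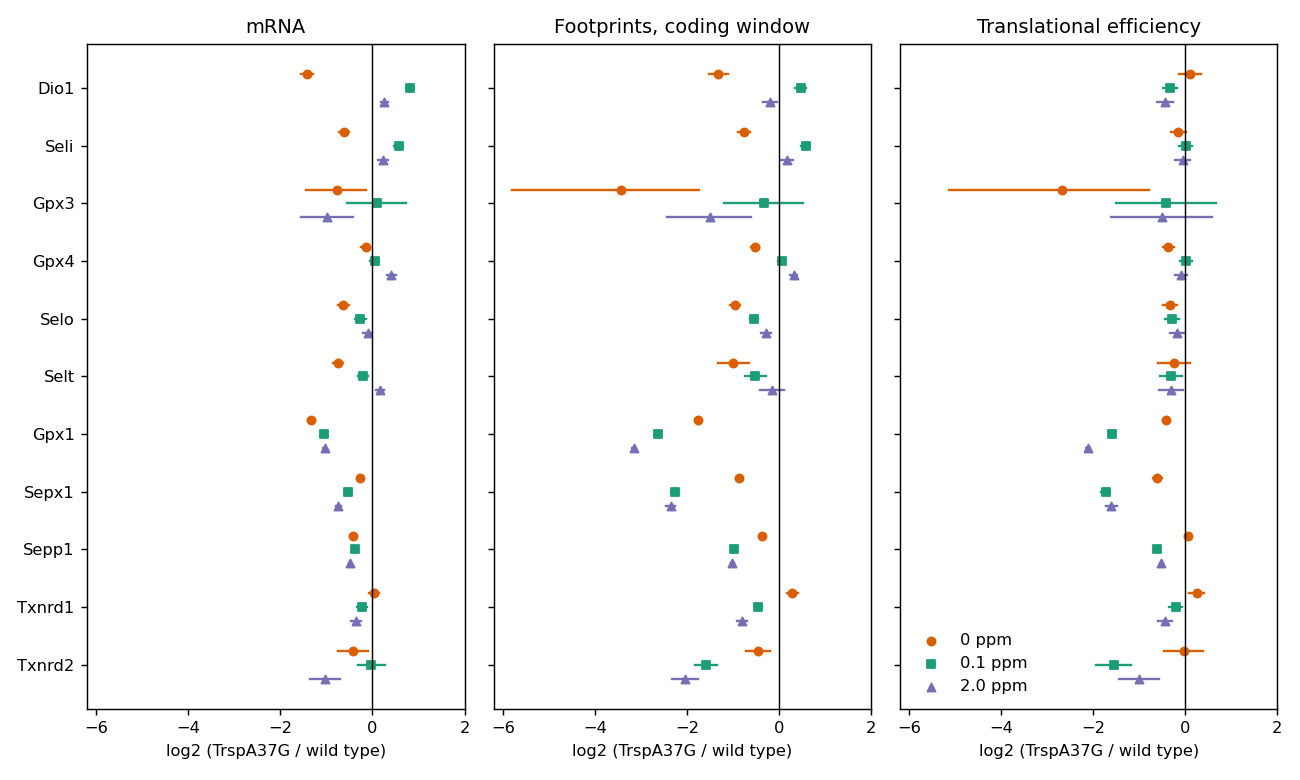
Log2 ratio of TrspA37G to wild type at 0 (orange circles), 0.1 (green squares) and 2.0 ppm selenium (purple triangles) for mRNA, footprints over the coding window and translational efficiency, with 95% counting intervals, for the 11 genes whose footprint ratio at 0 ppm was called different from that on another diet. Dio1 mRNA lies at -1.43 without selenium and at 0.81 at 0.1 ppm, and Gpx1 footprints lie at -1.76, -2.63 and -3.15.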

How the data were processed

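Per the labels' protocols, frozen livers were homogenised in cycloheximide, RNase 1 gave footprints, monosomes were collected, and libraries came from a small RNA kit. Reads were mapped with Bowtie to mm9, per the submitters' processing notes; versions and filters were not given in the sources used here. Values as deposited are RPKM (RPFKM for footprints) in 4 tables of 23 genes, for the whole mRNA, the coding sequence without its first 15 and last 3 codons, and its parts 5' and 3' of the UGA, per the file headers. Column 8 of 3 tables is called mRNA in one header line and RPFKM in another and was read as footprints. A few abundant RNAs can move all values of a library, since values share 1 total.

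Whole reads were recovered from all 795 values above 0, within 0.001: with 1 mapped total per library, 647 used an annotated length (GENCODE M21) and 148 a fitted one, where wholeness is built in. Ratios are of deposited values without a pseudocount. Intervals of level ratios and of shares are exact. Those of ratios of ratios and of odds ratios are exact up to 2000 reads and log-normal above that. Values divided by the mRNA ratio or mRNA share and differences between diets have log-normal intervals throughout. Because each group has 1 library, no count model was run. Recovery of mapped totals from coding windows, and intervals under counting error alone, were tested on simulated reads. The fitting of lengths was not part of this test. Python 3.11.15 with scipy 1.17.1 was used. Genes and lists were chosen with earlier results of these data known; named genes are all those compared. Alternatives were scaling to the median gene, 2-fold calls, other read minimums, other windows and other intervals.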

Additional observations from a re-analysis of the deposited data

Results flagged for a closer look

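Dio1 was called lower in TrspA37G at 0 ppm selenium and higher at 0.1 ppm, in 2 of the measures. For mRNA the log2 genotype ratio at 0 ppm was 2.24 below that at 0.1 ppm (difference -2.24). For footprints 5' of the UGA it was 1.88 below (difference -1.88). Each value rests on 1 library, so neither difference was tested over samples.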

How the results depend on the processing

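No paired analysis was possible because the labels give no replicate numbers and each group is 1 library. Scaling to the median gene left 4 genes lower and made 1 higher in mRNA, 2 and 3 in coding-window footprints, 1 and 2 in footprints 5' of the UGA and 2 and 3 in those 3' of it, and left 1 lower in translational efficiency. Of the genes called under at least one of these scalings it reversed, on the log2 scale, coding-window footprints of Seli (0.20), Selk (0.95), Selo (0.0053), Sep15 (0.13), Sepp1 (0.59) and Sepx1 (0.094), 5' footprints of Selk (0.83), Sep15 (0.024) and Sepp1 (0.21), and 3' footprints of Gpx4 (0.44), Sep15 (0.43) and Sepp1 (1.18); signs also turned for genes within the threshold under both, such as coding-window footprints of Gpx4 (0.45), Sels (0.58) and Txnrd2 (0.51). Over the coding window 8 mRNAs were lower, without Seli and Sephs2 and with Sep15. Scaled to the median gene as well, 4 were lower (Dio1, Gpx1, Selt and Txnrd3) and 0 higher. Without the 18 nt that hold the UGA, footprints were lower for 12 of 19 genes, with Selm gained and Selh not compared. Translational efficiency was then lower for 4 of 19, with Gpx1 gained. A threshold of 2-fold left 4 genes lower in mRNA, 7 in footprints, 4 in 5' footprints and 1 in translational efficiency. Translational efficiency from 3' footprints alone was lower for 5 genes and higher for 2, with Seli (2.25) and Sepx1 (0.80) reversed, and from 5' footprints lower for 1. Divided by the mRNA share, 0 shares at the UGA were lower (Gpx4 lost, -0.43) and 3 higher, of which Sepp1 (1.15) was gained and Sep15 could not be given. For differences between diets in mRNA, scaling made 2 genes higher at 0 ppm against 0.1 and 2 against 2.0 ppm, and 2-fold left 1 lower and 0 higher against 2.0 ppm. For footprints, 2-fold left 2 higher against 0.1 ppm and 2 lower against 2.0 ppm, and scaling left 2 lower against 2.0 ppm. For translational efficiency against 2.0 ppm, scaling gave 2 lower and 2-fold 2 higher, and 2-fold left 0 lower 3' to 5' ratios against 0.1 ppm. The cause was not tested. A read minimum of 50, no minimum beyond 1 read in each library, 0.5 reads added and a log-normal interval left every gene value they could give on its side of the threshold. Genes with under 10 reads in a library (Gpx3, Selh, Selm and Sepw1 in footprints) have intervals too wide for a size.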
